A study of Mus musculus with 4 samples.

Results

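The DNA methyltransferase genes Dnmt1, Dnmt3a, Dnmt3b and Dnmt3l and the gene of their partner Uhrf1 were read from 4 Affymetrix GeneAtlas arrays of E14tg2a cells, a feeder-independent mouse embryonic stem (ES) cell line grown in serum with LIF. Probe sets were taken by their single gene symbol in the platform annotation, which gave 1 probe set for each of the 5 genes, 5 of the 23521 probe sets with 1 symbol. No probe set with several symbols named any of the 5. The cells were either WT (wild type) or a double knockout (DKO) of Ctbp1 and Ctbp2, which encode transcriptional corepressors, and each genotype was sampled at d0 and at d2. The series concerns overexpression of PRDM14, and the labels d0 and d2 were taken to mean days 0 and 2 after its start; the labels do not say how it was started or how the knockout was made. There was 1 array per group and no array labelled d2 without overexpression, so PRDM14 and time in culture cannot be told apart, and a difference between arrays has no replicate check. The labels do not say how many clones or cultures stand behind an array. The Suz12-knockout cells named in the series title were not analysed here.

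DNA methylation in mammals is set on cytosines of CG dinucleotides. DNMT3A and DNMT3B place it on unmethylated DNA, helped by DNMT3L, a relative without catalytic activity of its own. DNMT1 copies it to the new strand after replication, and UHRF1 brings DNMT1 to hemimethylated CG sites. ES cells in serum have highly methylated genomes, and PRDM14, a transcriptional regulator found in naive pluripotent cells and in the germ line, is known for lowering Dnmt3a, Dnmt3b and Dnmt3l expression together with methylation. The question put to the 4 arrays is therefore whether these transcripts were lower at d2, and whether the loss of CTBP1 and CTBP2 altered that.

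RefSeq (GRCm38.p6) lists 3 transcript starts for Dnmt1, 3 for Dnmt3a, 1 for Dnmt3b, 3 for Dnmt3l and 2 for Uhrf1, which the single value per gene cannot separate. The 250 bases before the most upstream listed start are shown with their CG dinucleotides, the substrate of these enzymes, for Dnmt1, which had the largest difference below, and for Dnmt3a and Dnmt3b, whose values came in the same order on the 4 arrays. They are chr9:20959889-20960138 on the minus strand for Dnmt1, chr12:3806730-3806979 on the plus strand for Dnmt3a and chr2:153649199-153649448 on the plus strand for Dnmt3b, written 5′ to 3′ with each CG in capitals.
Dnmt1: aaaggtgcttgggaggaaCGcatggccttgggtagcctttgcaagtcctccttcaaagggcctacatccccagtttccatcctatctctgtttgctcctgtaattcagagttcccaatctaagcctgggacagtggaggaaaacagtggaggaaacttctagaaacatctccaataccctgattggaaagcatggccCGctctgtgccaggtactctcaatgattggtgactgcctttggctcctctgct
Dnmt3a: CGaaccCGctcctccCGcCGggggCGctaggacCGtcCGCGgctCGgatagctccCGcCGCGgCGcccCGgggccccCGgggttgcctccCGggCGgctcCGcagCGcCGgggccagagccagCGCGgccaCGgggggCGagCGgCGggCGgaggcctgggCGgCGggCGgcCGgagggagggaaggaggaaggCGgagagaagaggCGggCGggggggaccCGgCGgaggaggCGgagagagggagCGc
Dnmt3b: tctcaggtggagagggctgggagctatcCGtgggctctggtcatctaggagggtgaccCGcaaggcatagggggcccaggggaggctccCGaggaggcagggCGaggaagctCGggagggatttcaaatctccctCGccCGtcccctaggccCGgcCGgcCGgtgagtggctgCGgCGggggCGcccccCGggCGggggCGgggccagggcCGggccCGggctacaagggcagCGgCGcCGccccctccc
These windows held 2 CG in Dnmt1, 38 in Dnmt3a and 21 in Dnmt3b, against a median of 6 over the 32851 RefSeq windows of this length. As many or more were found in 81.2% of all windows for Dnmt1, 1.88% for Dnmt3a and 16.4% for Dnmt3b. Dnmt1 thus had few CG at this start, while its other 2 windows held 7 and 26, and those of Dnmt3a 40 and 15. The arrays do not show which start was in use, so the printed counts hold for the most upstream listed start only. The windows of Dnmt3l held 3 to 5 CG, below the median of all windows, and those of Uhrf1 10 and 30. The motif GGTCTCTAA, the consensus known for PRDM14, was searched on both strands, as was GTCTCTA, a part of it. Neither was present in any of the 12 windows of the 5 genes, while 0.240% of all windows held the longer and 2.85% the shorter. At these shares, finding none in 12 windows says little. These letters describe the windows only, since no binding or methylation was measured.

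The deposited values are taken as log2, and on that assumption 1 unit of difference is named 2-fold. Most values on these arrays lay between 0 and 1, with medians between 0.35 and 0.41, and a probe set was called dim when it stayed under 0.30 on every array, the 40th percentile of all values. All 5 probe sets passed that filter, and all 5 were at or above 0.30 on each array. The DKO d2 array stood apart from the rest, with a Pearson correlation of 0.727 with each of the others across probe sets where the other pairs gave 0.827 to 0.832. The differences of WT d2 against d0 and of DKO against WT at d0 do not use that array, nor do values read from another single array. The other results do, the means and patterns over 4 arrays among them. The filter and the choice of probe sets nearest in mean level, used below for every comparison, also draw on that array. The overexpressed gene did not stand out on the arrays: Prdm14 measured 0.34 and 0.42 on the d0 and d2 arrays of WT, and 0.24 and 0.68 on those of DKO. Ctbp1 measured 0.63 and 0.32 at d0 and d2 in WT against 0.56 and 0.42 in DKO, and Ctbp2 0.55 and 0.46 against 0.55 and 0.42, so the genotype was not visible in these probe sets, whose place relative to the deletions the labels do not give. The names WT, DKO, d0 and d2 therefore stand for libraries labelled so.

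To show how far signal stood above that of genes not known to be expressed in ES cells, values were placed among 1405 probe sets of olfactory and vomeronasal receptor genes, receptors of sensory neurons. Their median was 0.21 and 0.22 at d0 and d2 in WT, and 0.21 and 0.30 in DKO, and their 95th percentile lay between 0.83 and 0.98. Dnmt3b was above 97.9% and 96.9% of them at d0 and d2 in WT, and above 98.6% and 97.8% in DKO. Dnmt1 was above 82.8% at d0 and 97.1% at d2 in WT, and above 84.5% and 92.9% in DKO. Dnmt3a lay above 86.6% to 94.5%, Uhrf1 above 75.3% to 87.5%, and Dnmt3l above 55.9% to 87.5%. Averaged over the 4 arrays, Dnmt3b and Dnmt1 were above the 95th percentile of the receptors' own averages (0.77), and Dnmt3a, Uhrf1 and Dnmt3l were not. The same place was reached by 1 of 13 ES cell markers (Lin28a, mean 0.90, highest on DKO d2 at 1.60). It was also reached by 1 of 9 markers of feeder fibroblasts (Col3a1, 0.97) and 1 of 12 markers of differentiating cells (Foxa2, 0.87). This count did not set the labelled cell type apart on these arrays. The median level was 0.56 for the ES cell markers, 0.39 for the feeder markers and 0.47 for the differentiating cell markers. Above the receptors' median (0.24) were 12, 5 and 11 of them. A low place in this distribution means that the level is not shown to be above background; it does not order the genes by abundance, since levels also depend on the probes.

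**Figure D1:**
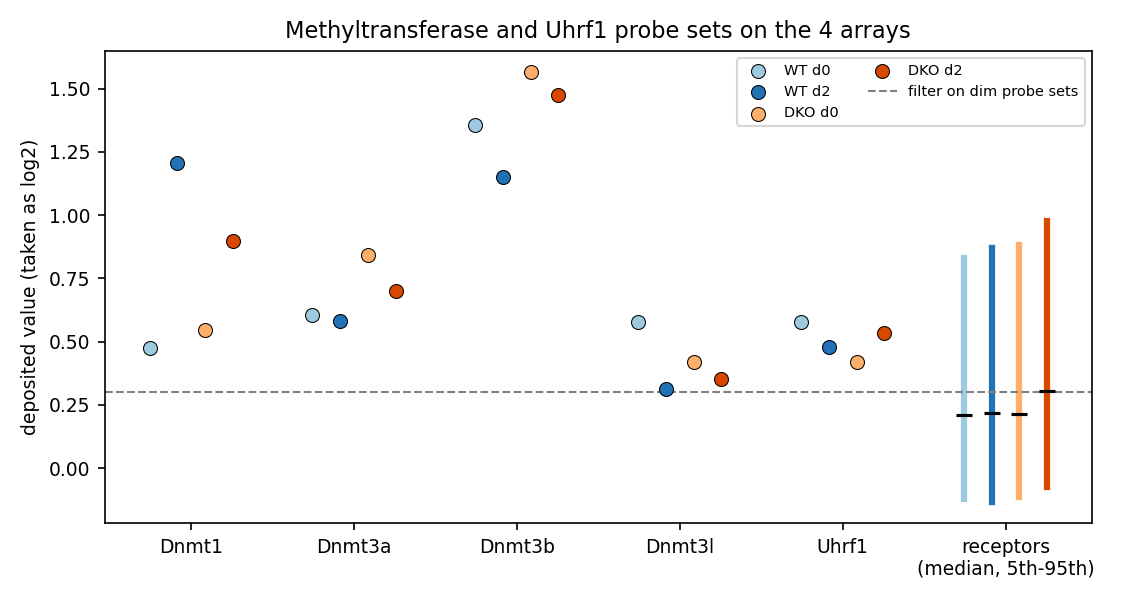
Deposited values (taken as log2) of the 5 probe sets on each of the 4 arrays, 1 point per array. The bars at the right give the 5th to 95th percentile, with the median as a tick, of 1405 olfactory and vomeronasal receptor probe sets on the same array, and the dashed line is the filter level of 0.30. Dnmt1 on WT d2 (1.21) and Dnmt3b on all arrays (1.15 to 1.56) stand above the receptor bars, while Dnmt3l reaches down to 0.31.

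Dnmt1, the maintenance methyltransferase, measured 0.47 at d0 and 1.21 at d2 in WT, and 0.55 at d0 and 0.90 at d2 in DKO. Both d2 arrays were above both d0 arrays, and the d0 values of the genotypes lay close together. The difference between d2 and d0 was 0.73 in WT and 0.35 in DKO. Among the 1000 probe sets nearest to Dnmt1 in mean level (0.72 to 0.84), the median size of the WT difference was 0.18 and the 95th percentile 0.60, and 2.60% had a difference at least as large as that of Dnmt1 in either direction. In DKO 28.2% of the same probe sets differed by at least as much as Dnmt1. The range of Dnmt1 over the 4 arrays, 0.73, was reached by 13.3% of them. The difference between DKO and WT was 0.07 at d0, a size reached by 75.9% of probe sets of like level, and -0.31 at d2, reached by 32.8%. The DKO change minus the WT change was -0.38, reached by 35.5%, so the smaller change in DKO lay within the usual spread of single arrays.

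Uhrf1, which encodes the partner that recruits DNMT1, measured 0.58 at d0 and 0.48 at d2 in WT, against 0.42 and 0.53 in DKO. It did not follow Dnmt1: its highest value was on WT d0, where Dnmt1 was lowest. The d2 difference was -0.10 in WT and 0.11 in DKO, and the genotype difference -0.16 at d0 and 0.06 at d2. Sizes at least as large were found in 67.6%, 65.7%, 52.4% and 82.6% of probe sets of like level. Its range over the 4 arrays, 0.16, was narrow, since 90.0% of those probe sets had a range at least as wide.

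Dnmt3b, a de novo methyltransferase, went from 1.36 at d0 to 1.15 at d2 in WT and from 1.56 to 1.47 in DKO. Each d2 value was below the d0 value of its genotype, and both DKO values were above both WT values. The d2 difference was -0.21 in WT and -0.09 in DKO, sizes reached by 50.3% and 80.5% of probe sets of like level (mean 0.95 to 1.82). DKO was higher than WT by 0.21 at d0 and by 0.32 at d2, sizes reached by 49.8% and 39.6%. Neither the day nor the genotype thus set Dnmt3b apart from probe sets as bright.

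Dnmt3a, the other de novo enzyme, measured 0.61 at d0 and 0.58 at d2 in WT, with 0.84 and 0.70 in DKO. Like Dnmt3b, it was lowest on WT d2 and highest on DKO d0, with both DKO values above both WT values. The d2 difference was -0.02 in WT and -0.14 in DKO, and DKO was above WT by 0.24 at d0 and 0.12 at d2. Sizes at least as large occurred in 92.2%, 67.1%, 37.1% and 69.3% of probe sets of like level. Dnmt3aos, an antisense RNA gene within Dnmt3a that was looked at after its values were seen, measured 0.47 at d0 and 0.53 at d2 in WT, and 0.90 and 0.55 in DKO. Its highest value was on DKO d0 too. The labels do not say whether the probes tell the strands apart, so the signals of the pair may not be separate.

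Dnmt3l, the cofactor of the de novo enzymes, went from 0.58 at d0 to 0.31 at d2 in WT and from 0.42 to 0.35 in DKO. Both d2 values were below both d0 values, and the WT d2 value was close to the filter level of 0.30. The d2 difference was -0.26 in WT and -0.07 in DKO, sizes reached by 24.9% and 79.4% of probe sets of like level. DKO differed from WT by -0.16 at d0 (45.3%) and by 0.04 at d2 (87.4%), and the latter was slightly below 0 after each of 3 other scalings of the arrays. Dnmt3a, Dnmt3b and Dnmt3l were thus each lower at d2 in both genotypes, by 0.02 to 0.26, and each of these 6 sizes was reached by at least 24.9% of probe sets of like level. Signs were opposite in the genotypes for 48.5% of all probe sets past the filter, so a shared sign is common. The share lower in both genotypes was not counted, nor were the shares with the array orders given for single genes. Of 12 markers of differentiating cells, 3 were above 0 in d2 against d0 in each genotype. Of all probe sets past the filter, 51.1% were above 0 in WT and 55.3% in DKO. The median difference of these markers was -0.22 in WT and -0.17 in DKO, beside 0.0068 and 0.04 over all those probe sets. Their median level was 0.47 and 0.31 at d0 and d2 in WT and 0.66 and 0.51 in DKO. Of 13 ES cell markers 7 were above 0 in WT and 5 in DKO, beside the same shares of all probe sets. Dppa5a, a naive pluripotency marker, went from 0.96 to 0.72 in WT and from 1.23 to 0.0049 in DKO. Lin28a, another ES cell marker, went the other way, from 0.39 to 0.85 in WT and from 0.77 to 1.60 in DKO. The DKO d2 values of both genes come from the array that stood apart, whose part in them was not tested. Of 6 counted feeder fibroblast markers 2 were above 0 in WT and 4 in DKO, again beside those shares. The part of these markers in the differences of the 5 genes was not tested.

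**Figure D2:**
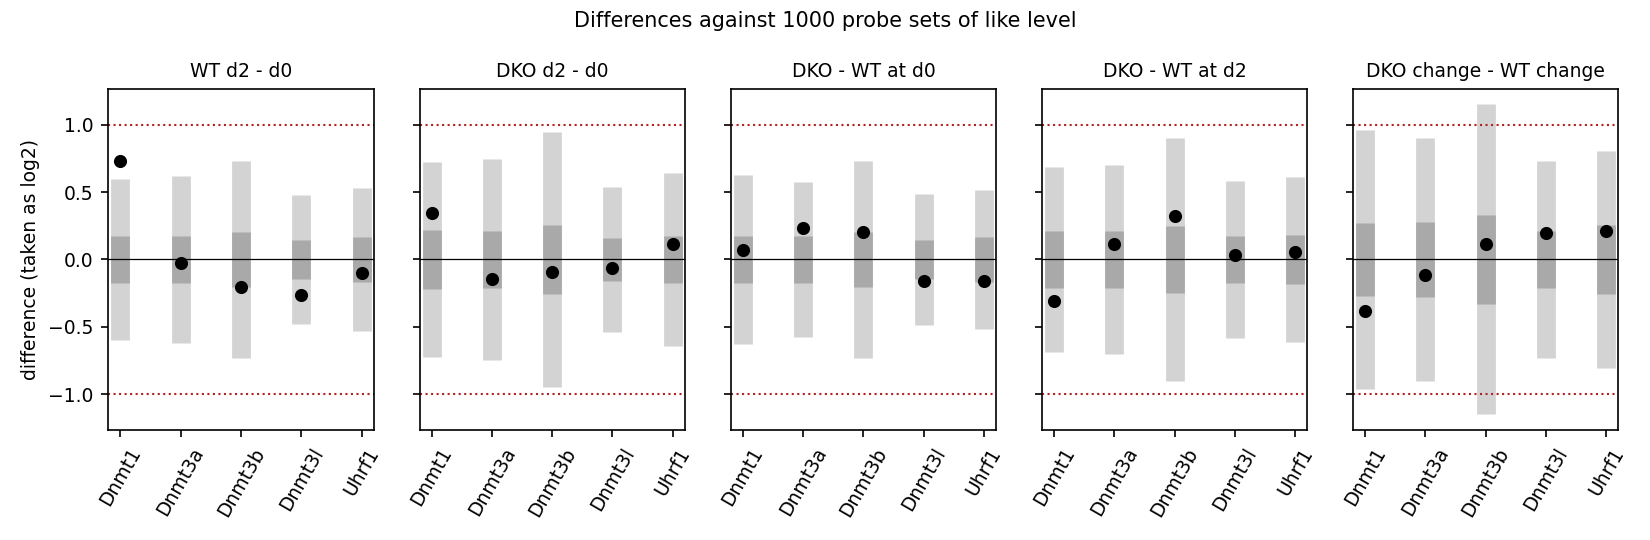
Differences of the 5 genes (points, taken as log2) in each comparison; the last panel is the DKO change minus the WT change. Dark and light bars reach the median and the 95th percentile of the size of the same difference among the 1000 probe sets nearest in mean level, and dotted lines mark 2-fold. Dnmt1 in WT d2 against d0 (0.73 against a 95th percentile of 0.60) is the 1 point of 25 outside its bar. A count of 1 among 25 is near the share that a 95th percentile leaves out.

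Counted at 2-fold, 0 of the 5 genes passed in any comparison. The background was low: of the 21145 probe sets past the filter, 0.345% differed by 2-fold in WT d2 against d0, 0.974% in DKO d2 against d0, 0.374% in DKO against WT at d0, 0.951% in DKO against WT at d2 and 2.38% in the difference of the changes. At these shares a count of 0 among 5 says little. At 1.5-fold Dnmt1 passed in WT d2 against d0, where 3.37% of all probe sets did. The median d2 difference of the 5 genes was -0.10 in WT and -0.07 in DKO, beside 0.0068 and 0.04 over all probe sets past the filter. Their median genotype difference was 0.07 at d0 and 0.06 at d2, beside 0.0090 and 0.04.

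An additive limma model of genotype and day, with 1 residual degree of freedom, so that any departure from additivity counts as error, gave the d2 change shared by WT and DKO and the genotype difference shared by both days. For Dnmt1 the shared d2 change was 0.54 ± 0.20 (SE), with a 95% confidence interval of 0.10 to 0.99. Its limma p was 0.0228 before adjustment and 0.930 after Benjamini-Hochberg adjustment over all 21145 probe sets. No probe set passed an adjusted p of 0.05 in this fit (0% called), and 1083 had an unadjusted p under 0.05 (5.12%). The shared d2 change was -0.08 (interval -0.48 to 0.32) for Dnmt3a, -0.15 (-0.72 to 0.43) for Dnmt3b, -0.16 (-0.51 to 0.18) for Dnmt3l and 0.0069 (-0.36 to 0.37) for Uhrf1. These intervals contain 0 and also reach sizes of 0.37 to 0.72, so the arrays do not exclude a change of that size. The genotype estimates lay between -0.12 (Dnmt1) and 0.26 (Dnmt3b), with limma adjusted p between 0.967 and 0.994. For genotype, 0% of probe sets passed as well, and 1044 (4.94%) had an unadjusted limma p under 0.05.

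**Figure D3:**
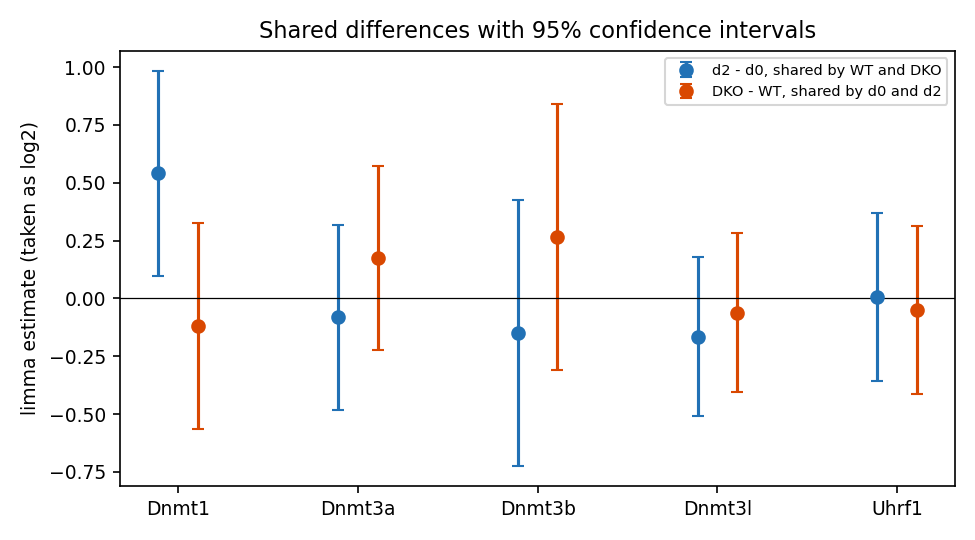
Limma estimates (taken as log2) of the d2 change shared by both genotypes and of the DKO minus WT difference shared by both days, with 95% confidence intervals. The interval of Dnmt1 for d2 (0.10 to 0.99) is the 1 interval that leaves out 0.

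Patterns over the 4 arrays were compared by the Euclidean distance between values centred on each gene's own mean, among 15993 other genes. Dnmt3b was at 0.16 from Dnmt3a, with 1495 genes nearer to Dnmt3a, and Uhrf1 at 0.17 from Dnmt3l, with 1621 genes nearer to Dnmt3l. Dnmt1 was at 0.62 (Uhrf1) to 0.83 (Dnmt3b) from the other members, beside a median distance of 0.63 from Dnmt1 over all those genes. Nearer to Dnmt1 than Uhrf1 were 7241 genes, so these distances do not set Dnmt1 apart from the other members in particular. The nearest genes were Get4 (0.06) and Exoc8 (0.08) to Dnmt1, Epha10 (0.0071) and Fam243 (0.01) to Dnmt3a, C87436 (0.02) and Lrrc7 (0.02) to Dnmt3b, Aig1 (0.0028) and Ankrd13d (0.0032) to Dnmt3l, and Agpat3 (0.01) and Ash2l (0.02) to Uhrf1. Within a distance of 0.2 lay 73 genes for Dnmt1 and between 1157 and 3743 for the other 4, so 4 arrays single out few neighbours.

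The rest of the methylation machinery was read from 8 lists of 121 genes, of which 104 had a probe set with 1 symbol and 92 passed the filter. None of the 92 passed 2-fold in WT d2 against d0, where 0.345% of all probe sets past the filter did in either direction. By that measure 2 were lower in DKO d2 against d0, beside 0.974% of all. For DKO against WT, 1 was higher at d0 (Cbx3, beside 0.374%) and 1 lower at d2 (Ahcy, beside 0.951%). In the difference of the changes 2 passed, beside 2.38%. Across the lists 5 genes had an unadjusted limma p under 0.05 for the d2 change and 5 for the genotype. Of all probe sets past the filter, 5.12% and 4.94% did. After adjustment there were 0 calls in each. The TET dioxygenases, which oxidize methylcytosine and are known partners of PRDM14, were named after their values were seen. Tet1 measured 0.41 at d0 and 0.31 at d2 in WT and 0.51 and 0.49 in DKO, and Tet2 0.33 and 0.33 in WT and 0.42 and 0.23 in DKO. Tet3 measured 0.64 and 0.61 in WT and 0.86 and 0.52 in DKO. The d2 differences of the 3 genes lay between -0.34 (Tet3 in DKO) and 0.0008 (Tet2 in WT). In the list of oxidation and base excision, 0 of 11 genes passed 2-fold in any comparison. Smug1, a uracil DNA glycosylase, had the largest difference there, with 0.88 and 0.84 in WT against 0.46 and 0.34 in DKO (limma genotype estimate -0.46, adjusted p 0.954). In the list named for readers of methylation (7 genes, whose binding was not measured), Mbd3, a subunit of the NuRD complex, had the largest difference. It measured 0.86 and 1.07 in WT against 0.40 and 0.55 in DKO (limma genotype estimate -0.49, adjusted p 0.954). Both WT values were above both DKO values for each of these genes.

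Of 8 counted partners of maintenance methylation none passed 2-fold, and the median d2 difference was -0.01 in WT and -0.0047 in DKO. Dppa3, whose protein displaces UHRF1 from chromatin, went from 2.01 to 1.72 in WT and from 1.51 to 1.81 in DKO, so its d2 difference was -0.29 in WT and 0.29 in DKO. Uhrf2, the relative of Uhrf1, differed at d2 by 0.07 and -0.29. Hells, a chromatin remodeller needed for methylation of repeats, differed by 0.03 and -0.17, and Usp7, a deubiquitinase that binds DNMT1 and UHRF1, by 0.23 and -0.25. These last 3 genes were named after their values were seen.

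The 2 genes past 2-fold in DKO d2 against d0 were Cbx3, a heterochromatin protein that binds methylated H3K9, and Ahcy, which clears S-adenosylhomocysteine, the product of methyl transfer. The brightest Cbx3 probe set measured 2.63 at d0 and 3.08 at d2 in WT, and 4.15 and 2.43 in DKO. The 4 Cbx3 probe sets disagreed, with DKO d2 differences of -1.73, -1.49, -0.03 and 0.70. The brighter Ahcy probe set measured 1.06 and 1.56 in WT and 1.97 and 0.25 in DKO, and the other Ahcy probe set 0.58 and 0.44 in WT and 0.60 and 0.45 in DKO. The low Ahcy value was on the DKO d2 array, which stood apart from the others. The part of that array in these values was not tested.

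Germline genes known to be kept silent by DNA methylation were counted too, as were imprinted genes. Of 22 germline genes on the arrays, 0 had a mean level above the sensory receptors' 95th percentile (0.77). Above the receptors' median (0.24) were 16. Of 22 imprinted genes, 1 was above that percentile (Nnat, 1.38) and 18 above that median. The median level was 0.29 for the germline genes and 0.32 for the imprinted genes. Most of these genes are thus not shown to be above background, so their differences are not taken as a readout of methylation. Of 19 counted germline genes 7 were above 0 in WT d2 against d0 and 13 in DKO d2 against d0, with medians of -0.05 and 0.14 beside 0.0068 and 0.04 over all probe sets past the filter. Of all those probe sets, 51.1% were above 0 in WT and 55.3% in DKO. The sensory receptor probe sets had a median difference of 0.0037 in WT and 0.07 in DKO, with 50.7% and 60.8% above 0, and the part of that shift in the germline values was not tested. None of the germline genes passed 2-fold. Asz1, a piRNA pathway gene of germ cells, had the largest difference, going from 0.67 to -0.23 in WT and from 0.60 to 0.23 in DKO, and both d2 values lie below the filter level. Of 18 imprinted genes 7 were above 0 in WT and 10 in DKO, with medians of -0.10 and 0.02, beside the same shares of all probe sets. Plagl1, an imprinted zinc finger gene, measured -0.05 and 0.82 in WT and 0.41 and 0.58 in DKO, but its other probe set 0.34 and 0.18 in WT and 0.09 and 0.35 in DKO, so the d2 difference in WT was 0.87 in one and -0.15 in the other. Among 12 genes of PRC2 and of the cofactors of PRDM14 and CTBP, Aebp2, a PRC2 subunit, had the largest difference, with 0.25 and 0.39 in WT against 0.74 and 0.74 in DKO.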

How the data were processed

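Total RNA was labelled with biotin and measured on 4 GeneAtlas arrays, all on strip 2, per the labels. The values the authors deposited are taken as log2, an assumption, since the table states no base; the submitters' processing notes name RMA, without a version. Most values lie between 0 and 1, which is low for RMA output, so the table may not be plain RMA output. No label says whether further arrays were normalized together with these. The values were used without further scaling.

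Of 41345 probe sets, 23521 had 1 gene symbol, 1814 several and 16010 none. Of those with 1 symbol, 23328 were matched to a RefSeq (GRCm38.p6) gene and took its symbol, whether or not it differed. Probe sets with a highest value of at least the 40th percentile (0.30) were counted, 21145 in all. Elsewhere a gene stands for its probe set with the highest mean. Single arrays were compared by differences with no test, called at 2-fold and placed among the 1000 single-symbol probe sets nearest in mean level. Shared changes were fitted with limma 3.58.1 in R 4.3.3 (additive, trend), with Benjamini-Hochberg adjustment, and the fit was tested on simulated data. Arrays are few, which limits precision.

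Named genes are all 5 members, the design genes, the 2 nearest patterns per member and, per list, every gene past 2-fold or else the one with the largest difference. The nearest patterns leave out predicted genes, small RNAs and sensory receptors. Members and lists were chosen with earlier results of these data known. The alternatives tried were cyclic loess, quantile normalization, equal array medians, a 1.5-fold threshold, 500 or 2000 neighbours, no or a stricter filter (60th percentile), moderation without trend or robust, and an adjusted p under 0.1. Other tools were Python 3.11.15, numpy 2.4.6, pandas 2.3.3, scipy 1.17.1 and matplotlib 3.10.9.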

Additional observations from a re-analysis of the deposited data

Results flagged for a closer look

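Uhrf1 had d2 changes of opposite sign in the genotypes, -0.10 in WT and 0.11 in DKO, a difference of 0.21 that was not tested. Opposite signs were also found in 48.5% of the 21145 probe sets past the filter.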

How the results depend on the processing

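The 25 member differences (5 genes, 5 comparisons) moved by at most 0.08 under equal array medians, quantile normalization and cyclic loess, less than the spread of all probe sets in the same comparison. Only Dnmt3l in DKO against WT at d2 changed sign, to -0.0081, -0.0044 and -0.0097. The count of members past 2-fold stayed at 0 under the 3 scalings; at 1.5-fold it was 1 in WT d2 against d0. The limma estimate of Uhrf1 for the d2 change was reversed to -0.023 with equal medians, -0.029 after quantile normalization and -0.021 after cyclic loess. Limma calls for the d2 change, 0 in the values as deposited, were 1 with equal medians, 1 without trend and 40 with the stricter filter, where limma's prior degrees of freedom were 91.7 against 7.65 in the fit reported. Those for the genotype were 1 with equal medians, 1 after quantile normalization, 1 after cyclic loess and 29 with the stricter filter. No member was called in any of these fits, where the lowest limma adjusted p of a member was 0.482; the cause of these shifts was not tested. With 500 neighbours the share as large as Dnmt1 in DKO d2 against d0 was 32.0%. Each gene had 1 probe set, so averaging probe sets changed nothing. No replicate could be left out with 1 array per group. No paired analysis was possible because the groups hold 1 array each and share no replicate numbers; the additive fit does compare d2 with d0 within each genotype.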
